A study of Mus musculus with 4 samples.

Results

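Regulators of G-protein signaling (RGS proteins) end the signal of G-protein-coupled receptors by speeding the hydrolysis of GTP on the G alpha subunit. They bind mainly G alpha subunits of the Gi and Gq classes, and Rgs2 is known for its preference for Gq. In the brain vasculature Rgs5 is a widely used pericyte gene, Rgs4 is also known in mural cells, Rgs10 is known in microglia, Rgs1 in lymphocytes, and Rgs18 in platelets and other myeloid cells. The 8 genes described here, Rgs1, Rgs2, Rgs3, Rgs4, Rgs5, Rgs10, Rgs16 and Rgs18, were taken by symbol from the 31053 genes of the deposited gene list, and all 8 were found.

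The data were single-cell RNA-seq libraries of brain vascular-associated cells (BVACs) from wild-type male C57BL/6 mice of 12 to 14 weeks. Chronic social defeat (CSD) mice lived for 14 days beside an aggressive CD-1 mouse, behind a clear perforated divider that was lifted for 5 minutes a day, and home cage (HC) mice spent the same 14 days behind a divider that stayed in place, paired with a CD-1 mouse per the study's methods and in a new cage per the labels. Each condition had 2 libraries, and each library pooled cells of 4 mice that had been captured with anti-CD31 beads and freed by mechanical and enzymatic (collagenase) digestion, so p-values measured the spread between 4 pools and not between mice. The tissue was the brain without cerebellum, striatum, brainstem and olfactory bulbs, and the 3′ ends of polyA RNA were sequenced.

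After filters on UMIs (unique molecular identifiers, 1 per captured transcript), genes and mitochondrial reads, 14415 cells remained, with 2553 to 4934 cells per library and 1408 to 2357 UMIs in the median cell. The library totals lay between 27297599 and 30361474 UMIs. In CSD 2 only 32.6% of UMIs fell in kept cells, against 51.8% to 56.8% in the other 3 libraries. Pairs of libraries shared 0 to 9 cell barcodes. Cells were gated into classes by marker genes that held no RGS gene. The 12 classes with at least 10 cells in every library were 4940 endothelial cells (EC) with their capillary (4139), arterial (232) and venous (85) subclasses, 4551 microglia, 1453 choroid plexus cells, 433 pericytes, 416 arterial smooth muscle cells (SMC), 308 astrocytes, 204 ependymal cells, 103 T cells and 86 fibroblasts. The gate used these genes, so each class carried its own markers by construction. The 8 pericyte markers summed to 19328, 29922, 24453 and 23127 CPM in the pericytes of CSD 1, CSD 2, HC 1 and HC 2, and to 11.5 to 39.4 CPM in microglia. CPM is the number of UMIs of a gene per 1000000 UMIs of that class and library. Because only the 3′ end of a transcript was captured, a level was compared between classes within a gene and not between genes.

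Of the 8 genes, 6 lie on chromosome 1 of GRCm38 (GENCODE vM21), Rgs3 lies on chromosome 4 and Rgs10 on chromosome 7. Rgs2 (chr1:143999338-144004161, minus strand), Rgs1 (chr1:144242296-144249242, minus) and Rgs18 (chr1:144752683-144775435, minus) lie near each other, as do Rgs5 (chr1:169655501-169695813, plus) and Rgs4 (chr1:169741477-169747642, minus). Rgs5 and Rgs4 face each other with 45663 bases and 0 annotated genes between their ends. Rgs16 lies at chr1:153740349-153745468 (plus), Rgs3 at chr4:62559847-62704001 (plus) and Rgs10 at chr7:128373621-128418758 (minus).

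The 250 bases before the annotated start of 4 of the genes are printed from RefSeq (GRCm38.p6), since these 4 were higher in EC with many immediate-early gene transcripts and since Rgs4 and Rgs5 shared their mural pattern. Capitals mark a TGACG (the core of a cAMP response element, on either strand) or a TATAAA (the core promoter box, on either strand), and each sequence runs 5′ to 3′ on the strand of the gene.
Rgs4, chr1:169747643-169747892, minus: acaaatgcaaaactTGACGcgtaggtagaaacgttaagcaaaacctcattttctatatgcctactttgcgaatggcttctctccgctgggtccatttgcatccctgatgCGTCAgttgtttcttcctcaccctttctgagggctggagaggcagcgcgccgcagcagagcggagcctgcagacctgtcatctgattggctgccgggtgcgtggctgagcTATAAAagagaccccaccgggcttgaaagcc
Rgs5, chr1:169655251-169655500, plus: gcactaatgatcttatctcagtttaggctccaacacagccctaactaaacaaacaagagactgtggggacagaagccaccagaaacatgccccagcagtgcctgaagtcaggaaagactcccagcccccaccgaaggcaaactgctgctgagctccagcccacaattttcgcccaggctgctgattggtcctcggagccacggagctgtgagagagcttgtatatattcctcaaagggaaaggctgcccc
Rgs2, chr1:144004150-144004399, minus: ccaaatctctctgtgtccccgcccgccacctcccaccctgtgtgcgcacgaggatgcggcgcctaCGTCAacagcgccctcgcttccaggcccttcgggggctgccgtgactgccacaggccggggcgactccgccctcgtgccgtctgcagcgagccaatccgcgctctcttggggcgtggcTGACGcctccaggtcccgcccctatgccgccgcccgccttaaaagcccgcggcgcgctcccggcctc
Rgs16, chr1:153740103-153740352, plus: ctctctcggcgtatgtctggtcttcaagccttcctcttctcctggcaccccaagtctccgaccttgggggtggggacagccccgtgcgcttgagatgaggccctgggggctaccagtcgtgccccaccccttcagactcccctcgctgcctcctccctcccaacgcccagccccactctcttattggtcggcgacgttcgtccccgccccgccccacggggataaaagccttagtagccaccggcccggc
TGACG stood 236 and 141 bases before the start of Rgs4 and 185 and 67 bases before the start of Rgs2, and in neither Rgs5 nor Rgs16. Among all 32851 promoters of the same length, 17.8% held TGACG on either strand. The TATAAA of Rgs4 began 31 bases before its start, and 12.4% of all promoters held TATAAA somewhere in the window. The full element TGACGTCA, of which TGACG is a part, was in 1.55% of promoters and in 0 of the 7 member promoters in the table. The AP-1 site TGANTCA was in 6.75% of promoters and likewise in 0 of the 7. The 7 promoters belong to Rgs2, Rgs16, Rgs5, Rgs4, Rgs10 and, with 2 starts, Rgs3. These are matches of letters and not measured sites.

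**Figure D1:**
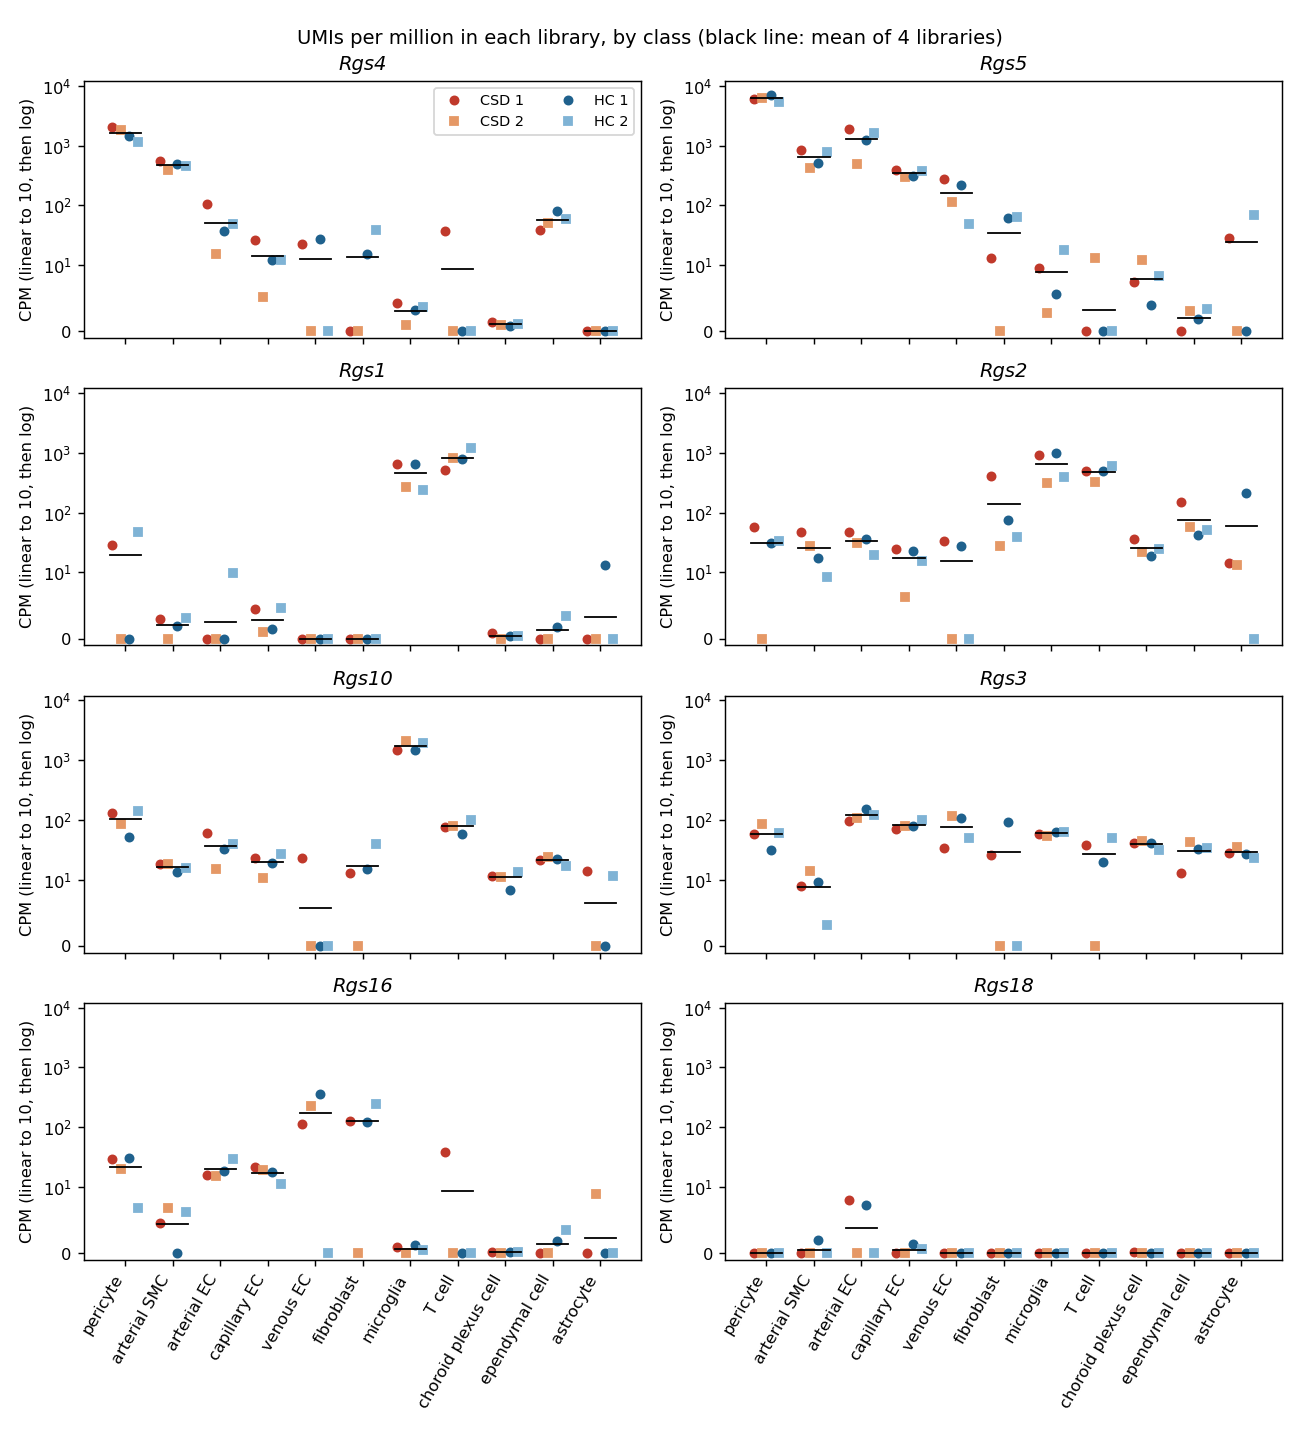
Level of each of the 8 genes (CPM, linear up to 10 and logarithmic above) in 11 classes, with EC shown as subclasses. Each point is 1 library and the black line is the mean of 4. Rgs4 and Rgs5 were highest in pericytes in all 4 libraries, Rgs10 in microglia, and Rgs18 was at or near 0 in all 11 classes.

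Rgs5 and Rgs4 were mural genes in these libraries, with their highest levels in pericytes, the cells that wrap capillaries. Rgs5 stood at 6007, 6217, 7123 and 5412 CPM in the pericytes of CSD 1, CSD 2, HC 1 and HC 2. It stood at 838, 422, 503 and 782 CPM in arterial SMC, which ring the larger vessels. All 4 pericyte values lay above all 4 SMC values, and Rgs5 was 8.94-fold higher in pericytes (log2 difference 3.16, SE 0.17, adjusted p = 5.2e-19, edgeR quasi-likelihood test with Benjamini-Hochberg adjustment, paired by library). Rgs4 stood at 2041, 1851, 1425 and 1127 CPM in pericytes and at 555, 383, 491 and 452 CPM in SMC. Those values did not overlap either, and the step was smaller than that of Rgs5, 3.03-fold (log2 difference 1.60, SE 0.15, adjusted p = 2.6e-12). Per 100 Rgs5 UMIs, pericytes held 34.0, 29.8, 20 and 20.8 UMIs of Rgs4 and SMC held 66.2, 90.8, 97.7 and 57.9, so the balance of the pair differed between the mural classes in each library. Rgs10 was a minor gene of both classes and was also higher in pericytes, at 101.7 CPM ± 42.1 (SD, n = 4 libraries) against 16.3 ± 2.33 in SMC (log2 difference 2.40, SE 0.35, adjusted p = 1.6e-07). The pericyte values of Rgs10, 51.2 to 143 CPM, lay at or under its level in free RNA, 143 to 181 CPM. Capillary EC held a mean of 19.7 CPM of Rgs10 and astrocytes 6.44 CPM. The part of free RNA in the difference between pericytes and SMC was not tested. The 3 members that could be tested in this contrast all passed, where 49.6% of all 4017 genes tested did. Rgs2, Rgs3, Rgs16, Rgs1 and Rgs18 were too low for the test in this contrast. Pericytes carried 1874 to 2962 CPM of the 8 arterial SMC markers, against 53570 to 57876 CPM in SMC.

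Cell by cell, Rgs5 was close to universal in pericytes. Between 91.2% and 97.1% of pericytes held at least 1 Rgs5 UMI, at 835 to 1556.5 UMIs in the median cell. When each cell was thinned to 500 UMIs, the share was 83.8% to 92.3% in pericytes and 0.228% to 0.991% in microglia, cells that should lack Rgs5 and that were deeper, at 1854 to 4805 UMIs. Rgs4 was found in 38.5% to 62.1% of thinned pericytes and in 0.0374% to 0.312% of thinned microglia. In barcodes of at most 100 UMIs, which hold free RNA, Rgs5 was at 117.0 to 239 CPM and Rgs4 at 39.8 to 69.4 CPM.

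**Figure D2:**
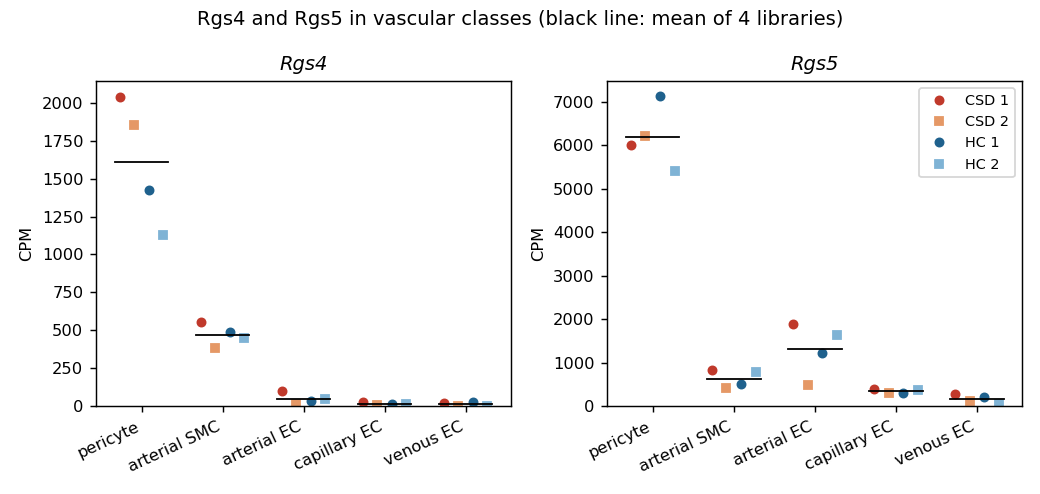
Rgs4 and Rgs5 (CPM, linear axis from 0) in 5 vascular classes. Each point is 1 library and the black line is the mean of 4. Pericytes lie above every other class for both genes, while for Rgs5 the arterial EC values, 487 to 1899 CPM, overlap those of arterial SMC.

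Against EC, the cells that line the vessels, pericytes held 12.7-fold more Rgs5 (log2 difference 3.66, SE 0.17, adjusted p = 6.0e-43) and 86.7-fold more Rgs4 (6.44, SE 0.21, adjusted p = 1.9e-59, edgeR). EC stood at 591, 339, 441 and 476 CPM of Rgs5 and at 34.6, 7.01, 15.2 and 15.98 CPM of Rgs4 in CSD 1, CSD 2, HC 1 and HC 2. Rgs10 was also higher in pericytes, by 2.17 on the log2 scale (SE 0.30). Rgs2, Rgs3 and Rgs16 did not pass (log2 differences 0.46, -0.54 and -0.22, with SE 0.51, 0.27 and 0.51). Of 6 members tested 3 passed, where 33.7% of all genes did. The EC values of Rgs4 lay under its free RNA level of 39.8 to 69.4 CPM in each library.

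Within EC the Rgs5 signal was uneven. EC with at least 1 UMI of a mural marker (Vtn, Kcnj8, Abcc9, Pdgfrb, Acta2, Tagln or Myh11) were 15.1% to 26.3% of EC and held 21.2% to 37.2% of all EC UMIs, yet they held 49.9% to 76.7% of the Rgs5 UMIs. With these cells left out, EC stood at 214, 207, 198 and 312 CPM of Rgs5 in CSD 1, CSD 2, HC 1 and HC 2, against 2.74 to 17.8 CPM in microglia. The free RNA of the same libraries held 141, 239, 117.0 and 235 CPM, so the EC value of CSD 2 lay under its free RNA. The values without mural-marked cells were chosen after the data were seen. With all cells kept, capillary and arterial EC held on average 22.6 and 15.3 UMIs of Vtn per 100 Rgs5 UMIs. Pericytes held 248 and arterial SMC 22.9. For Acta2, capillary and arterial EC held 14.1 and 8.33, against 1.05 in pericytes and 3328 in arterial SMC. What part of the remainder came from mural RNA was not tested.

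Along the vessel, Rgs5 was highest in arterial EC. It stood at 1899, 487, 1218 and 1629 CPM there, at 392.4, 299, 303 and 374 CPM in capillary EC, and at 271, 114, 216 and 49.3 CPM in venous EC. The 4 arterial values lay above the 4 capillary values, and these above the 4 venous values. The arterial EC with the most Rgs5 held 118 UMIs and was a mural-marked cell, against at most 36 in a pericyte and 48 in an arterial SMC. Depth was not matched, at 1303.5 to 3488.5 UMIs in the median arterial EC, 835 to 1556.5 in pericytes and 2352 to 8592 in SMC. Mural-marked cells held 89.5%, 75%, 87.4% and 66.7% of the Rgs5 UMIs of arterial EC in CSD 1, CSD 2, HC 1 and HC 2. They held 66.5%, 19.5%, 72.8% and 40.1% of all arterial EC UMIs. The venous values of CSD 2 and HC 2 lay under the free RNA of those libraries, 239 and 235 CPM. Arterial against capillary EC differed by 1.96 on the log2 scale (SE 0.12, adjusted p = 3.9e-18, edgeR). Arterial EC carried more mural marker RNA than capillary EC, 259 to 1215 against 110.9 to 247 CPM of the SMC markers. With mural-marked cells left out, Rgs5 was at 593, 151, 564 and 906 CPM in arterial and at 174, 208, 164 and 288 CPM in capillary EC. The log2 difference was then 1.43 (adjusted p = 6.2e-09, edgeR), and CSD 2, which had 31 arterial EC of which 5 were left out, lay the other way. Both values of CSD 2 lay under its free RNA, 239 CPM. Rgs4, at 51.1 CPM ± 37.5 in arterial and 13.9 ± 8.90 in capillary EC, was higher in arterial EC by 1.87 (SE 0.34, adjusted p = 4.1e-05). Without mural-marked cells it stood at 19.9 ± 19.96 and 5.42 ± 4.10 CPM and was too low for the test. With all cells, arterial EC held 103.3, 15.2, 36.6 and 49.4 CPM of Rgs4 in CSD 1, CSD 2, HC 1 and HC 2. Free RNA held 39.8, 69.4, 46.8 and 53.1 CPM. Capillary EC lay under free RNA in each library, and the part of free RNA in this difference was not tested.

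Among the 11 classes, Rgs3 had its highest mean level in EC, with overlap between all neighbours in its order of classes. Border-associated macrophages, which had too few cells in CSD 2 to be ordered, held 31.8, 439, 69.2 and 257 CPM. It stood at 95.3, 106.5, 153.6 and 118.5 CPM in arterial EC and at 70.3, 77.9, 79.8 and 99.2 CPM in capillary EC. Each library was higher in arterial EC, by 0.62 on the log2 scale (SE 0.20, adjusted p = 0.033, edgeR), although the ranges overlapped between libraries. That call was lost under 5 of the alternatives, among them without CSD 1 (0.68), HC 1 (0.36) or HC 2 (0.69), and was kept with mural-marked cells left out (0.86, adjusted p = 0.039). Rgs2, Rgs10 and Rgs16 did not pass in this contrast, with log2 differences of 0.89 (SE 0.38), 0.99 (SE 0.35) and 0.09 (SE 0.47). In total 3 of 6 members tested passed, where 10.6% of all genes did.

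Rgs16 had its highest mean level in venous EC among the 11 ordered classes, with a range that overlapped that of fibroblasts. Its levels in venous EC were 112.9, 227, 351 and 0 CPM, from 10, 12, 13 and 0 UMIs, against 21.2, 18.8, 17.8 and 11.2 CPM in capillary EC. It was higher in 3 of 4 libraries, by 3.18 on the log2 scale (SE 0.43, adjusted p = 3.7e-11, edgeR), and absent from the 15 venous EC of HC 2. The venous EC with the most Rgs16 held 10 UMIs, and at most 25% of venous EC in a library held any. Without mural-marked cells the venous values were 68.5, 197, 334 and 0 CPM, with too few UMIs for a test. The markers of the venous gate included Icam1, Vcam1 and Lcn2. Beside Rgs16, 14 chemokine and NF-kB genes summed to 6483, 5455, 5380 and 1429 CPM in venous EC. In capillary EC they summed to 2302, 2337, 1496 and 1410 CPM. Of 5 such genes tested, 4 were higher in venous EC, and the part of these in the Rgs16 difference was not tested. Rgs5 fell by 1.02 on the log2 scale in venous against capillary EC (SE 0.28, adjusted p = 0.013), a call lost without CSD 2 (-0.91) or HC 2 (-0.78), with DESeq2 (-0.97) and with mural-marked cells left out (-1.04, adjusted p = 0.30). These 2 of 5 members tested compare with 2.79% of all genes. Fibroblasts, the collagen-making cells of the brain borders, held Rgs16 at 128.6, 0, 120.6 and 246 CPM, from 37 UMIs in all.

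Rgs10, Rgs2 and Rgs1 were the members of immune cells. Rgs10 stood at 1478, 2072, 1498 and 1917 CPM in the microglia of CSD 1, CSD 2, HC 1 and HC 2, 17.1 times the mean of the next of the 11 ordered classes (pericytes). Rgs2 stood at 928, 307, 1004 and 398 CPM in microglia and at 488, 328, 502 and 597 CPM in T cells, and these ranges overlapped. Rgs1 stood at 638, 269, 660 and 234 CPM in microglia and at 506, 825, 772 and 1193 CPM in T cells, also with overlap. Against EC, microglia were higher in Rgs1 (log2 difference 7.71, SE 0.35), Rgs10 (6.61, SE 0.33) and Rgs2 (5.41, SE 0.22) and lower in Rgs5 (-5.51, SE 0.29), Rgs16 (-4.75, SE 0.38) and Rgs4 (-2.30, SE 0.27). Rgs4, at 1.03 to 4.34 CPM in microglia and 7.01 to 34.6 CPM in EC, lay under its free RNA level of 39.8 to 69.4 CPM in both. The part of free RNA in that difference was not tested. Rgs3, at 59.7 CPM ± 4.48 in microglia, did not pass (-0.22, SE 0.13, adjusted p = 0.14, edgeR). In this wide contrast 6 of 7 members passed, where 65.3% of all genes did.

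Border-associated macrophages, the resident macrophages of meninges and perivascular spaces, were 124 cells, of which CSD 2 held 5. Rgs1 was at 169.6, 54.9, 81.7 and 64.3 CPM there and lower than in microglia in each library, with a log2 difference of -2.40 (SE 0.37, adjusted p = 2.7e-09, edgeR). Rgs10 was at 890.4, 824, 981 and 771 CPM and also lower in each library (-1.12, SE 0.30, adjusted p = 0.0025). The Rgs10 call was lost without CSD 1 (-1.39) and without HC 2 (-1.02). Rgs2 (-0.83, SE 0.31, adjusted p = 0.054) and Rgs3 (0.81, SE 0.37, adjusted p = 0.14) did not pass. The 2 of 4 members called compare with 14.0% of all genes, and the median over all genes was -0.22. Rgs18 showed the reverse placement: 29 of its 46 UMIs in gated cells were in these macrophages, at 106.0, 0, 81.7 and 193 CPM, and 0 were among the 11040400 UMIs of microglia. A count of 0 allows up to 3 counts, or 0.272 CPM over the group, so the pooled 95.8 CPM in macrophages was at least 352.6-fold higher. Other Rgs18 UMIs were in neutrophils (3), Ccr2+ monocytes (4), an NK cell (1), EC (7), an arterial SMC (1) and a choroid plexus cell (1), and no platelets passed the gate. NK cells (15 in all) held Rgs1 at 2842, 248, 817 and 1321 CPM. B cells were under 10 in 3 libraries, and T cells were not tested against them.

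Some RGS genes, Rgs2 and Rgs16 among them, are known to be rapidly inducible, and the tissue had gone through 2 collagenase steps of 10 minutes each at 37 °C. EC and microglia were therefore split at the median share of UMIs from 18 immediate-early genes, transcription factors and feedback genes that are switched on soon after a stimulus. No RGS gene was in that list. The median was taken over the cells of all 4 libraries together. Above it lay 55.9%, 64.0%, 36.3% and 44.0% of EC in CSD 1, CSD 2, HC 1 and HC 2. For microglia the shares were 56.9%, 39.7%, 52.8% and 44.3%. Above-median and below-median cells were then compared within each library. In EC, Rgs2 was at 35.3, 8.45, 39.6 and 19.7 CPM in the above-median cells and at 6.96, 1.66, 11.7 and 11.8 CPM in the below-median cells of CSD 1, CSD 2, HC 1 and HC 2. It was higher in all 4 libraries, by 1.69 on the log2 scale (SE 0.30, adjusted p = 3.0e-04, edgeR). Rgs16 was at 34.6, 26.0, 47.9 and 16.6 CPM above and at 3.48, 19.9, 3.18 and 5.88 CPM below the median (2.09, SE 0.37, adjusted p = 2.8e-04). Rgs5 was at 730, 366, 634 and 649 CPM above and at 256, 269, 245 and 280 CPM below (1.22, SE 0.11, adjusted p = 3.9e-09). Rgs4 rose likewise, from 8.81 CPM ± 4.76 to 24.3 ± 14.2 (1.54, SE 0.29, adjusted p = 6.6e-04). Rgs3 (-0.04, SE 0.12) and Rgs10 (-0.28, SE 0.25) did not pass. These 4 of 6 members compare with 9.06% of all genes tested. All EC values of Rgs2, above and below the median, lay under its free RNA level in the same library, which was 28.0 to 94.0 CPM. Those of Rgs4 did so in 3 of 4 libraries above and 4 of 4 below the median, and the part of free RNA in these differences was not tested.

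The EC above the median were also deeper, at 985 to 1899 against 789 to 1331 UMIs in the median cell, and in 3 of 4 libraries they more often carried a mural marker (14.97% to 29.0% against 15.2% to 24.7%). They held 2.99% to 11.1% arterial EC, against 1.87% to 4.60% below the median. In capillary EC alone, Rgs5 (1.32), Rgs16 (3.26) and Rgs4 (1.35) passed, and Rgs2, too low for that test, had 24.3 CPM ± 12.5 above and 7.44 ± 4.59 below. With mural-marked EC left out, Rgs2 (1.62) and Rgs5 (0.60) passed, and Rgs16 was at 26.1, 21.5, 48.2 and 14.1 CPM above and at 4.37, 8.33, 1.53 and 4.43 CPM below, with too few UMIs for the test. Rgs4, by contrast, was then at 7.24 CPM ± 4.24 above and 6.36 ± 6.11 below. Both of these subsets were chosen after the data were seen. Of the EC, 12.3% lay near the median (from 20% below to 25% above it). Beside the RGS genes, 7 of 10 heat shock genes and 5 of 7 Gs-coupled receptors and cAMP targets were higher above the median, led by Nr4a1 (4.06), which the split itself used, and Sik1 (0.82), and the part of these in the result was not tested.

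**Figure D3:**
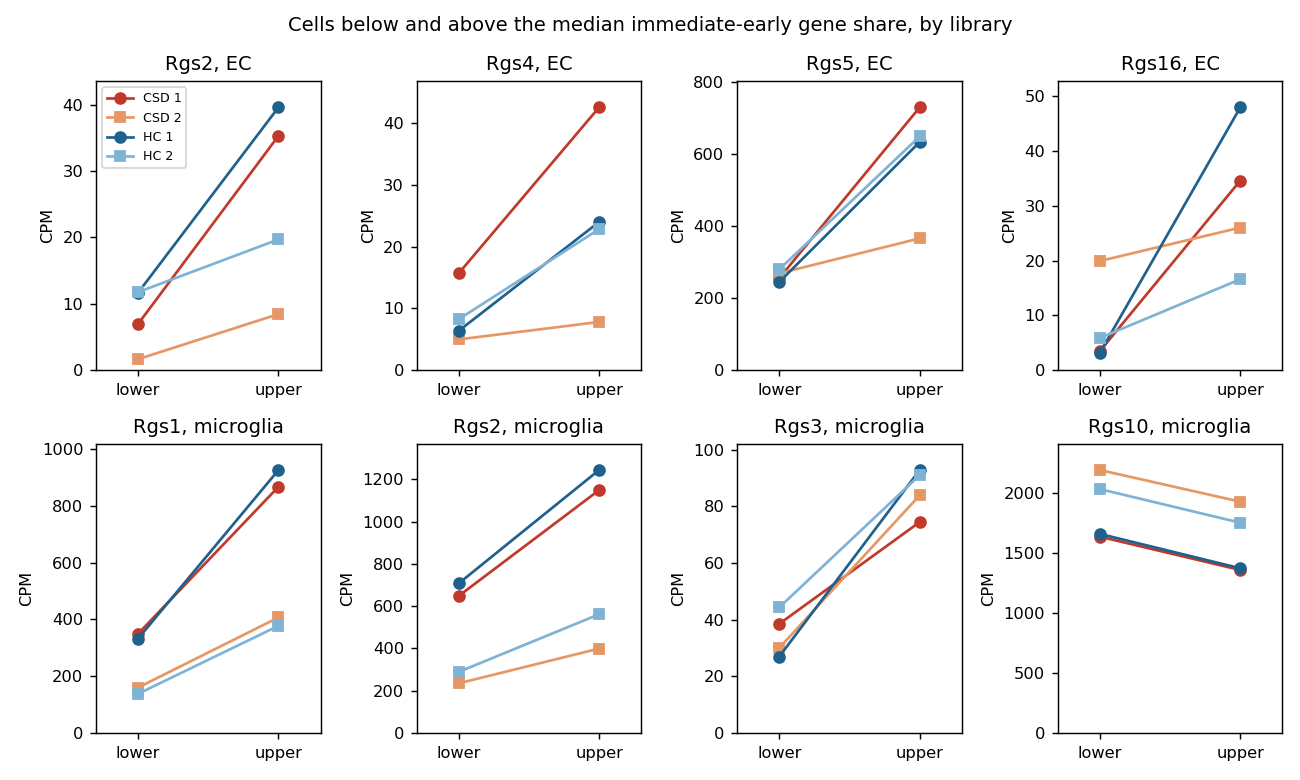
CPM (linear axes from 0) of 4 genes in EC and 4 in microglia, in cells below (lower) and above (upper) the median immediate-early gene share. Each line joins the values of 1 library. All 4 lines rise for Rgs2, Rgs4, Rgs5 and Rgs16 in EC and for Rgs1, Rgs2 and Rgs3 in microglia, and all 4 fall for Rgs10 in microglia.

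In microglia, all 4 members tested moved with the same split, where 14.5% of all genes did. Beside them, 7 of 10 heat shock genes were higher and 2 lower, 5 of 8 G beta and gamma subunits were lower, and the part of these in the result was not tested. Rgs1 was at 868, 407, 927 and 378 CPM above and at 349, 159.9, 332 and 138 CPM below the median (log2 difference 1.297, SE 0.07, adjusted p = 4.5e-22, edgeR). Rgs3 was at 74.5, 83.9, 92.8 and 91.0 CPM above and at 38.5, 30.02, 26.9 and 44.3 CPM below (1.18, SE 0.13, adjusted p = 2.1e-10), with no overlap. Rgs2 was at 839 CPM ± 421 above and 470 ± 243 below (0.74, SE 0.06, adjusted p = 3.1e-13). Rgs10 went the other way, at 1356, 1924, 1370 and 1749 CPM above and 1633, 2188, 1656 and 2029 CPM below (-0.33, SE 0.06, adjusted p = 3.8e-05). The depth of the median cell was higher above the median in CSD 2 and HC 1 and lower in CSD 1 and HC 2, and 30.8% of the microglia lay as near the cut.

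A split of the same microglia by 14 chemokine and NF-kB genes of activated microglia gave a different set of calls. Rgs3 fell by 0.75 on the log2 scale in cells above the median (43.2, 45.7, 41.2 and 52.4 against 75.8, 67.5, 92.3 and 77.1 CPM, SE 0.12, adjusted p = 1.1e-06, edgeR). Rgs1 (-0.02, SE 0.06), Rgs2 (-0.001, SE 0.06), Rgs10 (-0.03, SE 0.05) and Rgs5 (-0.69, SE 0.30) did not pass. The 1 of 5 members compares with 4.52% of all genes. Rgs3 thus had differences of opposite sign under the splits, and each split used the same cells. Microglia above the chemokine median were deeper in all 4 libraries, most in CSD 2 (5804 against 2377 UMIs in the median cell), and 22.7% lay near the cut by the same measure.

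The partners of the RGS proteins were compared between the same classes. Of 9 G alpha subunits tested, 2 were higher and 3 lower in pericytes than in EC, among the lower Gnai2 (-1.16) and Gnaq (-1.44), the Gi and Gq targets of the family, with a median log2 difference of -0.14 against -0.10 over all genes, of which 33.7% passed. Of 11 G beta and gamma subunits, 4 were higher and 4 lower, led by Gng2 (4.62) and Gnb4 (1.41). Of 13 Gi- and Gq-coupled receptors tested, 7 were higher and 4 lower. P2ry14, a receptor for nucleotide sugars, was at 879.8 against 5.15 CPM (7.31, SE 0.22), S1pr3 was 6.19 higher, and S1pr1, the main sphingosine phosphate receptor of endothelium, was lower (-4.96). Against arterial SMC, all 7 such receptors tested were higher in pericytes, where 49.6% of all genes passed in either direction, with a median log2 difference of 2.43 against -0.01 over all genes, among them P2ry14 (3.66), Tbxa2r, the thromboxane receptor (3.16) and Grm3 (5.61). Among 10 Gs-coupled receptors and cAMP targets tested between pericytes and EC, 4 were higher and 4 lower, with Pth1r at 5.55 and Adora2a at 6.17.

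Of 17 other genes of the RGS family and its relatives, 6 could be tested between pericytes and EC, and 2 were higher and 1 lower, a share to be read against the same 33.7%. Rgs12 was at 16.5 CPM in pericytes and 319.9 CPM in EC (-4.33, SE 0.32), so it had the opposite placement to Rgs4 and Rgs5. Rgs12 was also lower in arterial than in capillary EC (-0.996, SE 0.14). Rgs7bp, which anchors another RGS branch to the membrane, was at 437 CPM in SMC and 85.7 CPM in pericytes (-2.47, SE 0.19). In microglia against EC, 3 of 6 were higher, among them Rgs19 (2.35), and 2 were lower, Axin2 (-5.59) and Rgs12 (-5.22), in a contrast where 65.3% of all genes passed.

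Across the 11 classes, the genes whose mean levels ran most like Rgs5 were Tbx3, Lama4 and Hrct1 (Pearson r 0.948, 0.944 and 0.943, log2(CPM + 10), over 7425 genes of at least 50 CPM in a class). For Rgs4 they were Ndst3, Carmn and Slc38a11 (0.968, 0.950 and 0.949), for Rgs1 Bcl2a1b, Lcp1 and Ptprc (0.988, 0.988 and 0.987), for Rgs2 Cks2, Cotl1 and Apbb1ip (0.963, 0.935 and 0.934), and for Rgs10 Cops4, Ms4a6d and Ccl3 (0.983, 0.969 and 0.960). For Rgs3 they were Irak1, Nck1 and Aph1a (0.902, 0.894 and 0.877), and for Rgs16 Ctr9, Adh1 and Thbd (0.914, 0.893 and 0.889). Rgs4 and Rgs5 had r = 0.762 with each other and Rgs1 and Rgs2 had r = 0.851. The 11 points share 4 libraries, and these values are a description.

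The comparison of CSD with HC asked whether social defeat moved the 8 genes within a class. Of 96 pairs of a gene and a class, 36 had enough UMIs for a test, and 0 passed in edgeR. The lowest adjusted p was 0.72, 4 pairs had an unadjusted p under 0.05, and DESeq2 called 0, with 1 pair at an unadjusted p under 0.05. The background was low as well: CSD against HC called 0.0701% of all genes in EC, 0.150% in capillary EC, 0.0611% in arterial EC, 0.0434% in pericytes, 0.0175% in choroid plexus cells, 0.618% in astrocytes and 0.283% in T cells, and 0% in microglia, arterial SMC, ependymal cells, fibroblasts and venous EC. The 36 log2 differences ran from -0.90 to 1.39, with SE from 0.15 to 0.998. Among the 8 lists of related genes, the calls were 2 immediate-early genes, Fos, lower in CSD astrocytes (-3.32, SE 0.63), and Klf2, higher in CSD T cells (1.94, SE 0.44). No other RGS gene, G-protein subunit, receptor, chemokine or heat shock gene of the lists was called in edgeR in the 12 classes.

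**Figure D4:**
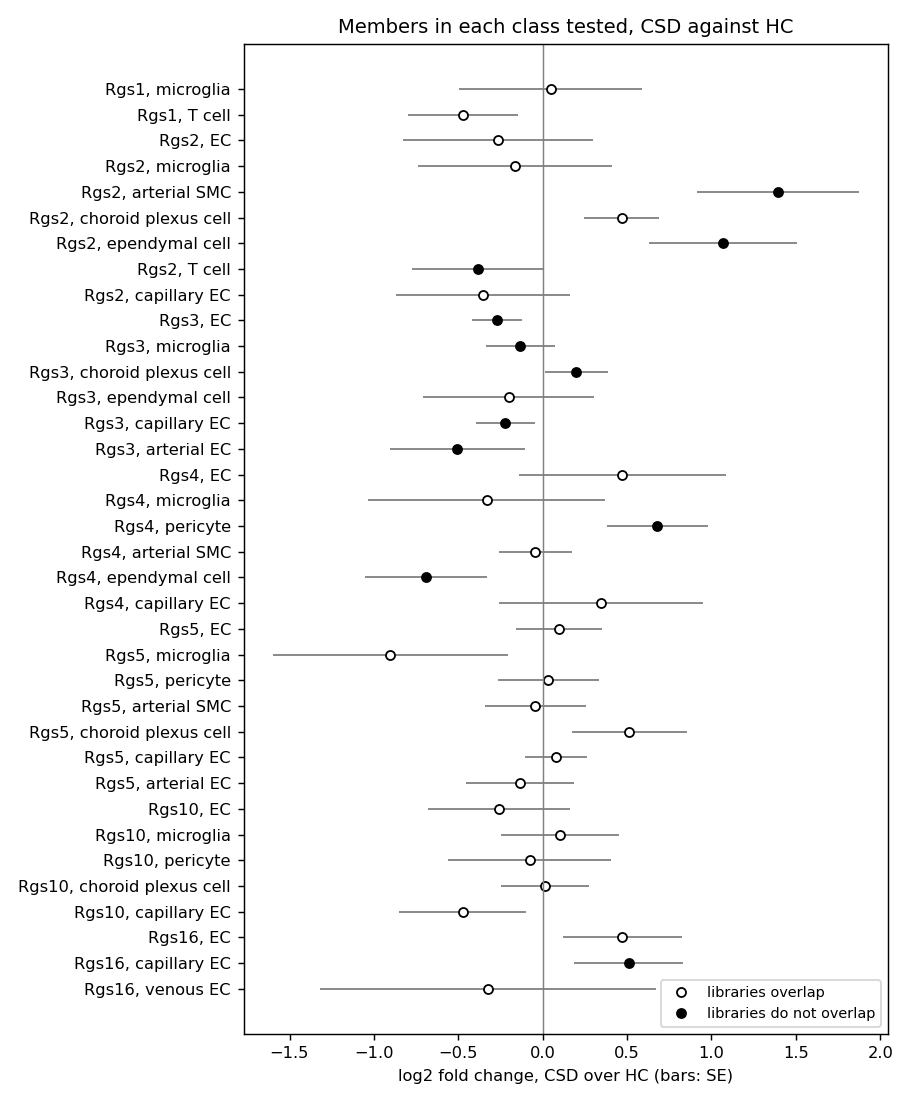
Log2 fold change of CSD over HC (bars, SE) for the 36 pairs of a gene and a class that could be tested, with EC shown both whole and as subclasses. Filled points mark the 11 pairs in which the 2 CSD and the 2 HC libraries did not overlap, beside 31.7% of all genes tested over the 12 classes. None of the 36 passed the test.

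The CSD and HC libraries did not overlap in 11 of the 36 pairs, and over all genes tested in the 12 classes 31.7% did not overlap, so that count was no higher than the background. By class the background was 39.3% in EC, 40% in capillary EC, 32.7% in arterial EC, 40.2% in venous EC, 35.6% in pericytes, 29.9% in arterial SMC, 21.0% in microglia, 33.5% in T cells, 27.9% in choroid plexus cells, 30.6% in ependymal cells, 21.6% in astrocytes and 34.7% in fibroblasts. Rgs4 in pericytes was the pair with the highest levels among those whose libraries did not overlap. The 2 CSD libraries (2041 and 1851 CPM) lay above the 2 HC libraries (1425 and 1127 CPM), a log2 difference of 0.68 (SE 0.30, unadjusted p = 0.039, adjusted p = 0.82, edgeR, 2 against 2 libraries). The share of thinned pericytes with Rgs4 was 62.1% and 49.4% in CSD and 44.6% and 38.5% in HC. Rgs5 in the same cells did not separate (6007 and 6217 against 7123 and 5412 CPM). In arterial SMC Rgs4 overlapped between conditions (555 and 383 against 491 and 452 CPM). Beside the Rgs4 difference, the 10 heat shock genes summed to 7817 and 8609 CPM in the CSD pericytes and to 5217 and 6946 CPM in the HC pericytes, and the part of that difference in the result was not tested. The SMC markers in the pericytes overlapped, at 1997 and 2038 against 2962 and 1874 CPM.

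Rgs3 was lower in both CSD than in both HC libraries in EC (72.3 and 79.4 against 92.5 and 99.7 CPM, log2 difference -0.27, SE 0.15), in capillary EC (-0.22, SE 0.17), in arterial EC (-0.51, SE 0.40) and in microglia (-0.13, SE 0.20). The adjusted p-values ran from 0.747 to 0.9999 (edgeR), and the EC values are not independent of those of the subclasses. In choroid plexus cells, where Rgs3 was below 50 CPM, the difference had the other sign. EC of CSD libraries carried more immediate-early RNA, at a median of 1.14% and 1.502% of UMIs against 0.542% and 0.758% in HC, and the part of that difference in the Rgs3 values was not tested. Rgs2 was higher in both CSD libraries in ependymal cells (147 and 57.2 against 41.6 and 51.2 CPM, 1.07, SE 0.44, unadjusted p = 0.033, adjusted p = 0.99995, edgeR) and lower in T cells (488 and 328 against 502 and 597 CPM, -0.38, SE 0.39). Without CSD 2, a fit with 1 CSD library, the ependymal difference was 1.66 and passed, and CSD 1 was the highest library. Rgs4 was lower in ependymal cells of CSD libraries (37.9 and 51.2 against 81.3 and 58.0 CPM, -0.69, SE 0.36), beside 39.8 to 69.4 CPM in free RNA. Microglia held a mean of 3.08 CPM of Rgs4 and choroid plexus cells 1.04 CPM. For Rgs2, free RNA held 94.0, 28.0, 83.8 and 47.4 CPM in CSD 1, CSD 2, HC 1 and HC 2, and ependymal HC 1 lay under it. The pairs left with an unadjusted p under 0.05 were Rgs2 in SMC (46.9 and 27.5 against 17.3 and 9.23 CPM) and Rgs2 in choroid plexus cells (36.2 and 22.1 against 18.9 and 24.2 CPM), which were named after their values were seen. All 8 of these values lay under Rgs2 in the free RNA of the same library. All 4 such pairs were higher in CSD. In SMC Rgs2 was at 3 to 31 UMIs per library.

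Microglial Rgs1, Rgs2 and Rgs10 varied more between the libraries of a condition than between conditions. Rgs1 was 2.37 times higher in CSD 1 than in CSD 2 and 2.82 times higher in HC 1 than in HC 2, while CSD 1 was 0.967 times HC 1 and CSD 2 was 1.15 times HC 2. Rgs2 followed with 3.02 and 2.52 between libraries of a condition and 0.924 and 0.772 between conditions. Rgs10 had the opposite tilt, 0.714 and 0.782, with 0.987 and 1.08 between conditions. Thinned to 500 UMIs, the share of microglia with Rgs1 was 22.0% and 10.3% in CSD 1 and CSD 2 and 19.9% and 9.95% in HC 1 and HC 2, and unthinned it was 45.7%, 36.4%, 44.5% and 22.2%. Rgs10 was found in 49.7%, 63.4%, 50.2% and 58.9% of thinned microglia. Beside these values, the median immediate-early share of microglia was 3.18% and 2.54% in CSD 1 and CSD 2 and 3.05% and 2.66% in HC 1 and HC 2, and the free RNA held Rgs1 at 56.6, 28.0, 49.7 and 29.3 CPM and Rgs2 at 94.0, 28.0, 83.8 and 47.4 CPM. Nothing in the labels or methods says what the libraries numbered 1 share, and the part of these values in the difference was not tested.

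**Figure D5:**
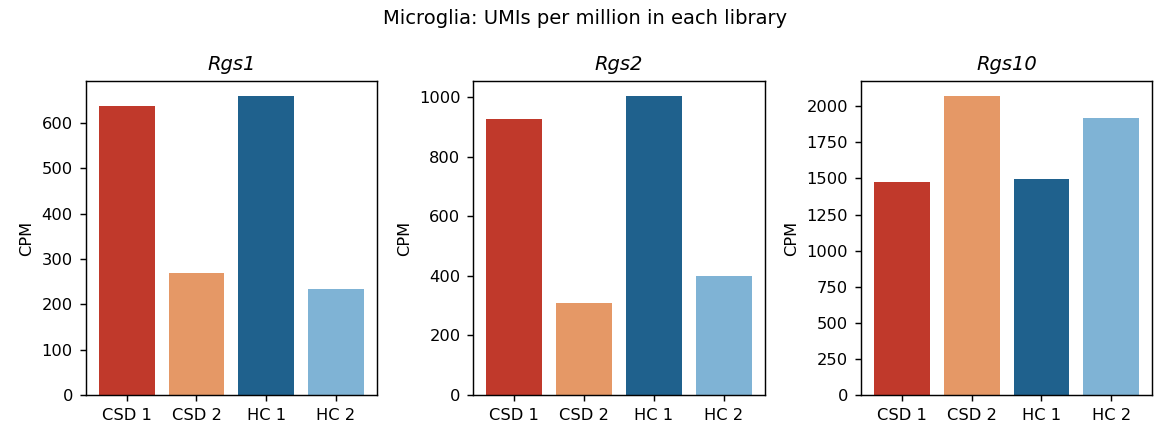
Rgs1, Rgs2 and Rgs10 in microglia (CPM, bars from 0) in each library. For Rgs1 and Rgs2 the libraries numbered 1 stand above those numbered 2 in both conditions, 638 and 660 against 269 and 234 CPM for Rgs1, and for Rgs10 they stand below.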

How the data were processed

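The authors aligned the reads to mouse GRCm38 (mm10) with Cell Ranger, version 4.0 per the labels and 3.1.0 per the file headers (the methods name 6.0), and deposited unfiltered UMI counts per gene and barcode. From these counts, barcodes with at least 500 UMIs, 250 genes and at most 25% mitochondrial UMIs were kept, as in the study, whose complexity filter served as an alternative. Cells were gated by marker genes (at least 3 markers, and marker UMIs at least 2 times the share in barcodes of at most 100 UMIs, which hold free RNA). Scrublet (scanpy 1.11.5) marked 123 cells (0.0981% to 1.48% per library), which were kept in the main result and left out as an alternative. UMIs were summed per library and class and tested with edgeR 4.0.16 (TMM, filterByExpr, quasi-likelihood, Benjamini-Hochberg over all genes, threshold 0.05). The fit was checked on simulated counts with several-fold changes planted in well-counted genes, so its power for smaller changes was not checked. The authors tested single cells, which are not replicates. Contrasts between classes were paired by library. Alternatives were DESeq2 1.42.0, other size factors, no filter on low counts, other cell filters and leaving out each library. The 8 genes and all lists were chosen with earlier results of these data known. All 8 are named in every class, and folds of CSD against HC are printed where called or where a gene averaged 50 CPM and the conditions did not overlap. Of the other lists, at most 3 genes per contrast with the smallest adjusted p are named, and for likeness the 3 genes of highest r. A gene of these lists is not reported here.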

Additional observations from a re-analysis of the deposited data

Results flagged for a closer look

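In 2 cases a gene had differences of opposite sign in 2 classes, with both CSD libraries on one side of both HC libraries each time. Such separation held for 30.6% of all genes tested in ependymal cells, 33.5% in T cells and 35.6% in pericytes. Rgs2 had a log2 difference of 1.07 (SE 0.44) in ependymal cells and of -0.38 (SE 0.39) in T cells. In T cells CSD 1 (488 CPM, 27 cells) and HC 1 (502 CPM, 16 cells) were nearly equal, so that separation was slight. Rgs4 had one of 0.68 in pericytes and of -0.69 in ependymal cells. The difference between the classes was not tested, and no single effect passed the threshold. Ependymal Rgs4, at 37.9 to 81.3 CPM, was close to its level in free RNA of 39.8 to 69.4 CPM. Other classes lay far under that level, with mean Rgs4 of 3.08 CPM in microglia and 1.04 CPM in choroid plexus cells. The part of free RNA in the ependymal values was not tested. Ependymal Rgs2 was at 147, 57.2, 41.6 and 51.2 CPM in CSD 1, CSD 2, HC 1 and HC 2. Free RNA of these libraries held Rgs2 at 94.0, 28.0, 83.8 and 47.4 CPM, so HC 1 lay under it. No group held 4 libraries, so no library was tested as an outlier.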

How the results depend on the processing

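The 0 calls of CSD against HC stood under every alternative on all 4 libraries, the replicate block included. With 1 library left out, pairs passed only where it was a CSD library. Without CSD 1 these were Rgs2 in EC (-1.61) and capillary EC (-1.53), Rgs10 in EC (-1.08), Rgs16 in fibroblasts (-6.75), and Rgs5 in arterial EC (-1.55). Without CSD 2 these were Rgs4 in EC (1.24) and Rgs2 in ependymal cells (1.66) and fibroblasts (2.77). Neither fibroblast pair was among the 36 tested with all libraries. With 1 CSD library left, the filter on low counts asked for enough UMIs in 1 library only. Fibroblast Rgs16 was at 0 CPM in CSD 2, and the size of its fold rests on that 0. All genes were called more often in these fits too, least in ependymal cells and most in fibroblasts without CSD 1. The cause was not tested. There the lone CSD library is assumed to vary like HC. The libraries share numbers across conditions, and the correlations of their deviations were 0.028 to 0.403, but only 2 pairs exist and no source ties them. Counts that changed included 5 of 8 for pericytes against EC and 4 of 8 for macrophages against microglia with no filter on low counts. Venous against capillary EC gave 1 with DESeq2 and 0 with mural-marked cells left out. The EC split by immediate-early genes gave 1 with DESeq2 (which gave 3 of the 4 no adjusted p). It gave 1 under the stricter gate and 2 with mural-marked cells left out. Leaving out 1 library gave 1 to 2 calls for venous EC and 1 to 3 for macrophages. The shares of all genes called under these alternatives are not given, so these counts cannot be read against a background. The called class contrasts and the 8 differences between CSD and HC whose libraries did not overlap at 50 CPM or more were recomputed, and none reversed. Over the class contrasts, 224 alternative fold changes kept their side of the threshold. In 11 the call was lost (Rgs3 in arterial EC, Rgs5 in venous EC and Rgs10 in macrophages). The 11 leave out genes that an alternative made too low for the test or gave no adjusted p. Such were Rgs4 in arterial EC and Rgs16 in venous EC without mural-marked cells, and Rgs2, Rgs4 and Rgs16 in the EC split. For these the tally gives no check under those alternatives. The stricter gate left 14 pericytes, too few for a value, and gave none for arterial EC, venous EC and macrophages, and the limit of 1000 UMIs gave none for venous EC and macrophages.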
